A study of Rattus norvegicus with 12 samples.

Results

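A set of 10 receptor genes of the oligodendrocyte lineage was examined in bulk RNA-seq of primary rat oligodendrocyte precursor cells (OPCs): Casr, Gpr37, Gpr37l1, Adora1, P2ry12, Lpar1, S1pr5, Adgrg1, Ednrb and Chrm3. They were found by symbol in the deposited count table, which holds 30562 Ensembl genes, and each of the 10 symbols matched 1 row. The genes were chosen by role, with the fold changes of this comparison in view, in which Casr and Gpr37 were already known to be higher in the hypoxia-treated cells. Their values between the groups are therefore a description, and where they are counted against the threshold of the fit over all genes, that count is a description too.

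The 12 libraries came from wild-type (WT) OPCs. Of these, 6 were kept at a fraction of inspired oxygen (FiO2) of 5% (mild-hypo-OPCs) and the other 6 in room air (standard OPCs). The labels give an exposure of 6 hours, whereas the study's methods give 6 days, so the duration is uncertain. Per the methods, the cells of both groups were isolated by shaking from mixed cortical cultures of newborn Sprague-Dawley rats and grown with FGF-2 and PDGF-AA. These factors keep OPCs immature, and such cultures can carry astrocytes and microglia. The labels do not say whether the libraries of a group came from separate cultures, so the errors and p-values below measure the spread between libraries, which may be technical. The study's legend for this comparison gives 3 biological replicates per group, and it does not say how the 6 libraries relate to them.

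G protein-coupled receptors (GPCRs) cross the membrane 7 times and pass an outside signal to heterotrimeric G proteins, which act on cyclic AMP, calcium or the small GTPase RhoA. In the oligodendrocyte lineage they set when a precursor divides, migrates or begins to form myelin. The 10 genes cover calcium sensing (Casr), receptors related to the endothelin receptors (Gpr37, Gpr37l1 and Ednrb), purine receptors (Adora1 and P2ry12), lysophospholipid receptors (Lpar1 and S1pr5), an adhesion receptor (Adgrg1) and a muscarinic acetylcholine receptor (Chrm3). Several of them mark other cells too: P2ry12 is a standard marker of microglia, Ednrb and Gpr37l1 are also strong in astrocytes, and Gpr37 and S1pr5 increase as oligodendrocytes mature.

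Levels are given as CPM, the read count relative to the library's total (the M stands for mega), scaled with edgeR's TMM factors. Of the 10 genes, 8 reached an unscaled CPM above 10 in at least 1 library, the filter of the study's methods, which left 8938 genes in the fit. Casr and Ednrb passed through mild-hypo-OPC libraries only, and P2ry12 and Chrm3 did not pass. Depth differed together with the condition. Total counts were 4111669 to 9022324 in mild-hypo-OPCs, against 1356079 to 2797513 in standard OPCs, with no overlap, so that depth and condition cannot be told apart. Levels are not compared between genes, because no transcript lengths were used. In bulk RNA, fewer cells of a type and less RNA per cell cannot be told apart.

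**Figure D1:**
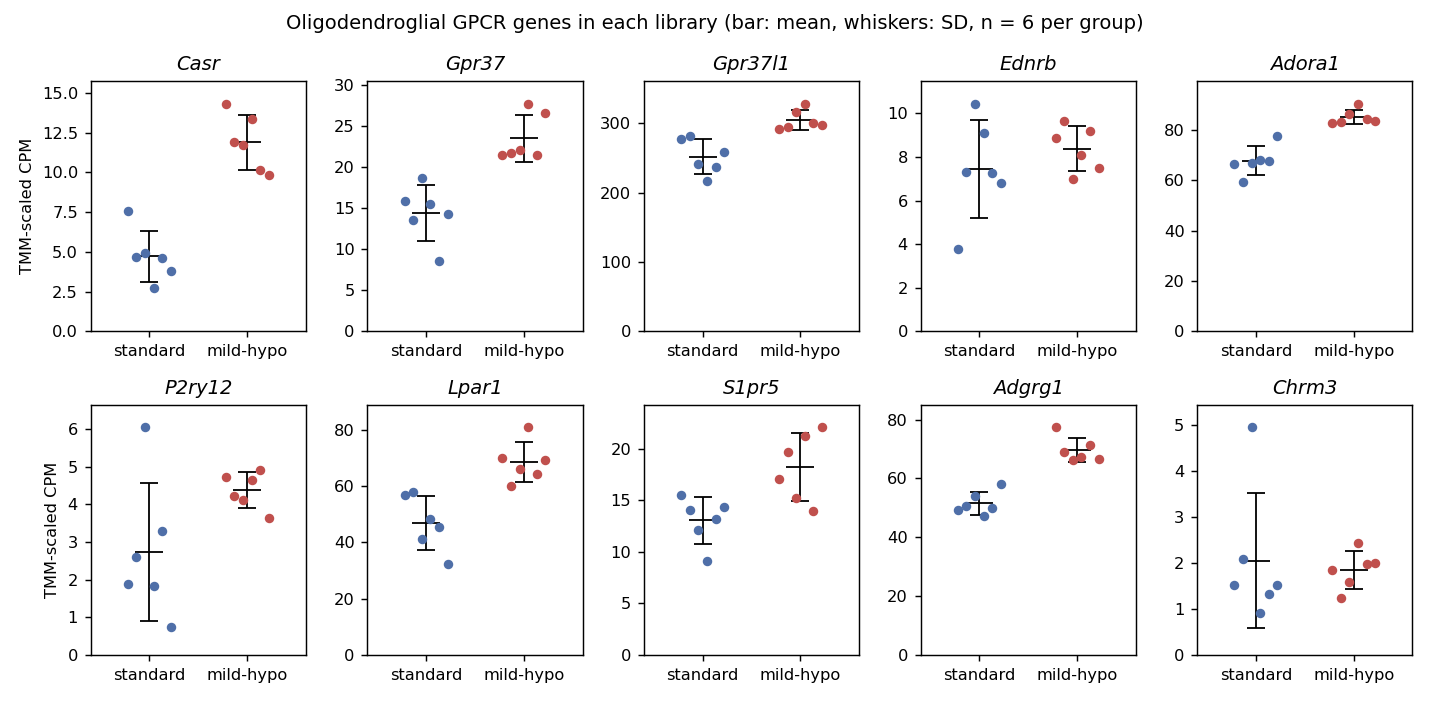
TMM-scaled CPM of the 10 receptor genes in each of the 12 libraries (points), with the mean (bar) and SD (whiskers) of 6 libraries per group. For Casr, Gpr37, Gpr37l1, Adora1, Lpar1 and Adgrg1 all 6 mild-hypo-OPC libraries lie above all 6 standard OPC libraries, whereas P2ry12, S1pr5, Ednrb and Chrm3 overlap.

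Of the 8 genes in the fit, 6 had a positive log2 fold change with an adjusted p under 0.05 in edgeR's quasi-likelihood test, against 6.99% of all 8938 genes for that direction and 24.0% for either direction. None was lower, where 17.0% of all genes were, and none was lower at an unadjusted p under 0.05 or with limma-voom or DESeq2 (0 in each). The same 6 genes, Casr, Gpr37, Gpr37l1, Adora1, Lpar1 and Adgrg1, had CPM ranges that did not overlap between the groups, with mild-hypo-OPCs above, which was the case for 2.94% of all genes in the fit. Because the genes were chosen with this contrast known, and 2 of them entered the fit through mild-hypo-OPC libraries only, these counts are given without a further reading. The median log2 fold change of the 8 genes was 0.44, and that of all genes in the fit was -0.0031.

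The HIF transcription factors, which answer to low oxygen, bind a short core sequence. The stretches of DNA before 3 of the genes called higher are shown as examples. A part of HIF in their levels was not tested. RefSeq sequences (GRCr8 build) were at hand for 8 of the 10 genes, with none used for P2ry12 or Lpar1. The 250 bases before the annotated start were searched on both strands for the HIF core, ACGTG or GCGTG, shown in capitals. The windows are chr11:77740364-77740613 (plus strand) for Casr, chr4:55126421-55126670 (minus strand) for Gpr37 and chr19:10047139-10047388 (minus strand) for Adgrg1, each written 5′ to 3′ along the gene.
Casr: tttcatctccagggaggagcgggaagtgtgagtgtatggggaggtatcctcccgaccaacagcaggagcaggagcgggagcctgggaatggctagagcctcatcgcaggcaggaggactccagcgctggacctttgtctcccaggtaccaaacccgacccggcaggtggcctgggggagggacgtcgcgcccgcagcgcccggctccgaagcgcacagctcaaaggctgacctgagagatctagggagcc
Gpr37: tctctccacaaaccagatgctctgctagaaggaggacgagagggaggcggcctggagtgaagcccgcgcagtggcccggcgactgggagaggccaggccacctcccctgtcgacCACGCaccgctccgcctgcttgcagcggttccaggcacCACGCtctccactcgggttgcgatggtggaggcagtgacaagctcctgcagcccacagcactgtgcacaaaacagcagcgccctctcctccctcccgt
Adgrg1: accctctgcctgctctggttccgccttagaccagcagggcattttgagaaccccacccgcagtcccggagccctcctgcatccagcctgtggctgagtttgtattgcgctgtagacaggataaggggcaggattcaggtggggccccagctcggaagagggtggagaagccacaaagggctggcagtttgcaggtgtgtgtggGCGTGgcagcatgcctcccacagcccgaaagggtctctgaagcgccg

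The Casr window held no HIF core. Neither did the windows of Gpr37l1 and Adora1, which were also called higher and are not printed. The Gpr37 window held 2, starting 136 and 98 bases before the gene's start, both on the opposite strand, where they read CACGC in the line above. The Adgrg1 window held 1, starting 47 bases before the start, and the Ednrb window, which is not printed, held 1 at 208 bases. Of the 8 windows, 3 held the core and 5 did not, and 36.7% of 33469 RefSeq windows of the same length held it. A match is a run of letters in this window and says nothing about binding. The Casr window had 15 CG dinucleotides, that of Gpr37 had 16 and that of Adgrg1 had 9, and the median over all windows was 5. The windows of Gpr37l1 and Adora1 had 3 each. Those of S1pr5, Chrm3 and Ednrb, genes not called higher, had 24, 17 and 10.

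Casr (ENSRNOG00000002265) encodes the calcium-sensing receptor, which responds to extracellular calcium and is expressed by OPCs. Its lowest, median and highest levels were 9.84, 11.8 and 14.3 CPM in mild-hypo-OPCs. In standard OPCs they were 2.73, 4.65 and 7.56 CPM. Every mild-hypo-OPC library was above every standard OPC library, and the groups did not overlap. The means were 11.9 ± 1.75 CPM and 4.72 ± 1.61 CPM (SD, n = 6 each), a 2.35-fold difference (log2 fold change 1.23, standard error 0.21), the largest among the 8 genes in the fit. These levels rest on 54 to 139 counts in each mild-hypo-OPC library, but on only 3 to 20 counts per standard OPC library. In both groups the deepest library, replicate 1, had the highest Casr level, and the shallowest standard OPC library, replicate 4, had the lowest.

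Because a scaling factor can move a small difference, each gene was also set against the summed counts of the 10 receptor genes in its own library, a share that no scaling factor touches. Casr took from 16.7 to 24.3 of every 1000 receptor counts in mild-hypo-OPCs, whereas its share in standard OPCs was 6.51 to 15.2. Casr was the only 1 of the 10 genes whose shares did not overlap between the groups. Its standard OPC shares rest on the few counts given above, and the gene was chosen with this contrast known, so this is a description. Against the counts of Gpr37l1 alone, the most heavily counted of the 10 genes, Casr had 33.0 to 49.2 counts per 1000 in mild-hypo-OPCs. In standard OPCs it had 12.6 to 27.2, without overlap. Gpr37l1 made up 494 to 571 of every 1000 receptor counts, so this ratio is not a separate check. The groups of the other 5 separated genes were apart on the CPM scale but not as shares of the set. The summed counts of the set were themselves higher in mild-hypo-OPCs, at 634 to 774 unscaled CPM, against 340 to 470 in standard OPCs. A rise common to the genes therefore cancels in a share. Overlapping shares cannot show whether the CPM separation of these 5 genes depends on scaling.

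**Figure D2:**
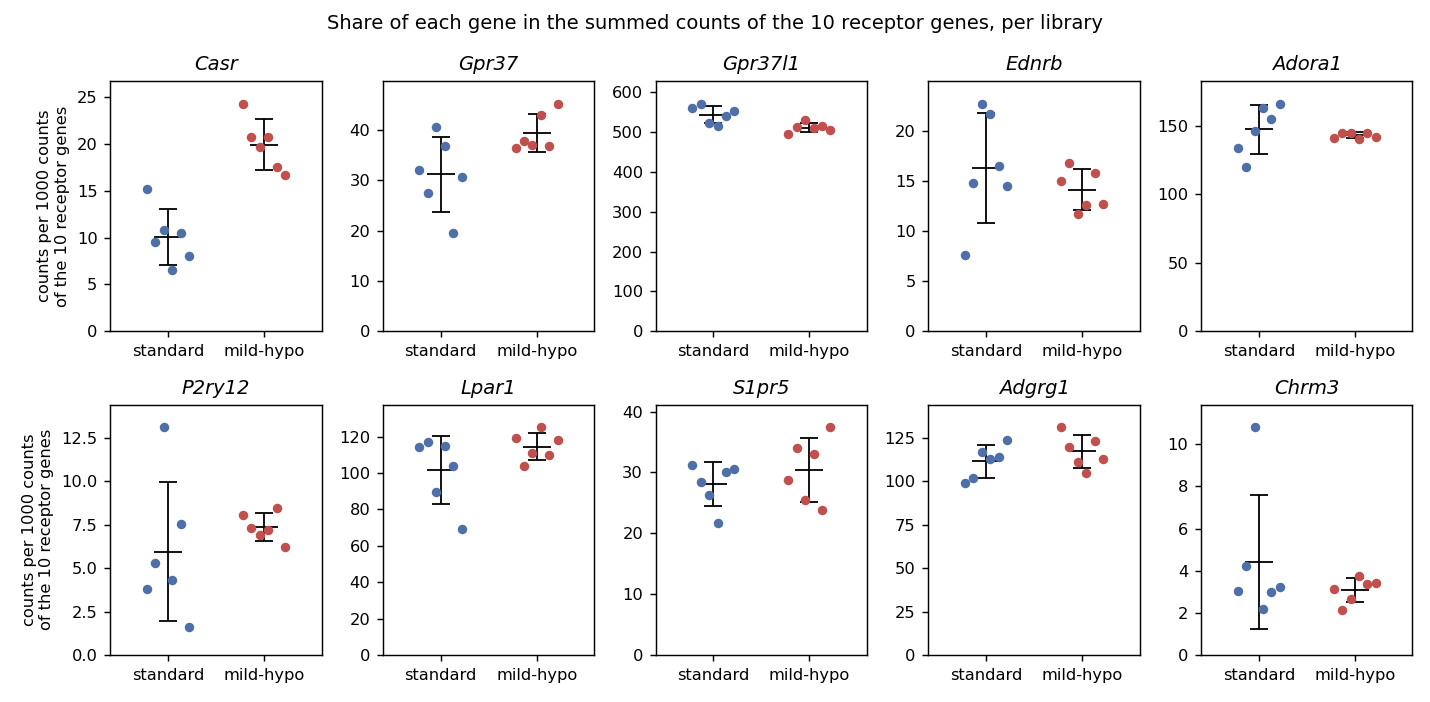
Counts of each receptor gene per 1000 summed counts of the 10 genes, in each library (points), with mean and SD of 6 libraries per group. The Casr shares span 16.7 to 24.3 in mild-hypo-OPCs, against 6.51 to 15.2 in standard OPCs, and the shares of the 9 other genes overlap between the groups.

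Gpr37, Gpr37l1 and Ednrb belong to 1 branch of peptide receptors. Gpr37 (ENSRNOG00000002524) encodes an orphan-like receptor of oligodendrocytes that restrains their differentiation. Its lowest, median and highest levels were 21.4, 21.9 and 27.7 CPM in mild-hypo-OPCs, against 8.56, 14.9 and 18.7 CPM in standard OPCs. The ranges did not overlap, although the gap between them was narrow, with standard OPC replicate 3 the highest of its group. The fold difference was 1.61 (log2 fold change 0.68, standard error 0.15), resting on 13 to 42 counts per standard OPC library.

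Gpr37l1 (ENSRNOG00000006237), the closest relative of Gpr37 and a receptor of astrocytes and OPCs, was counted 1622 to 2826 times in each mild-hypo-OPC library, against 238 to 736 times in each standard OPC library. Its lowest, median and highest levels were 291, 299 and 328 CPM in mild-hypo-OPCs, against 217, 249 and 282 CPM in standard OPCs. The ranges again did not overlap, but the fold difference of 1.21 (log2 fold change 0.27, standard error 0.08) was smaller than that of Gpr37. Its share of the summed receptor counts, a sum that was also higher in mild-hypo-OPCs, had a lower median there. It was 511 per 1000 in mild-hypo-OPCs, against 546 in standard OPCs, and these shares overlapped.

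Ednrb (ENSRNOG00000010997), the endothelin B receptor of astrocytes and OPCs, had 6.98, 8.48 and 9.66 CPM (lowest, median and highest) in mild-hypo-OPCs, against 3.78, 7.28 and 10.4 CPM in standard OPCs. The groups overlapped, and both the highest and the lowest level were in standard OPCs. The log2 fold change of 0.23 (standard error 0.21) was about the size of its error. It was 0.034 without standard OPC replicate 1 and 0.38 without standard OPC replicate 3. Its counts were 9 to 19 per standard OPC library.

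Of the purine receptors, Adora1 (ENSRNOG00000003442) encodes the adenosine A1 receptor, which couples to inhibitory G proteins. Its lowest, median and highest levels were 82.9, 84.1 and 90.5 CPM in mild-hypo-OPCs, against 59.5, 67.5 and 77.7 CPM in standard OPCs. The groups did not overlap, and the spread between mild-hypo-OPC libraries was small, with a SD of 2.89 CPM against 5.83 CPM in standard OPCs (n = 6 each). The standard OPC libraries were also shallower, and the part of counting error in their spread was not tested. The fold difference was 1.26 (log2 fold change 0.33, standard error 0.08).

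P2ry12 (ENSRNOG00000013902), an ADP receptor, was near the floor of the data. Its counts were 20 to 46 in the mild-hypo-OPC libraries, against 1 to 11 in the standard OPC libraries. Its lowest, median and highest levels were 3.65, 4.44 and 4.92 CPM in mild-hypo-OPCs, against 0.755, 2.25 and 6.05 CPM in standard OPCs. In all, 5 standard OPC libraries were below all mild-hypo-OPC libraries, and the other, replicate 3, was above them all. Fitted without the filter on low counts, its log2 fold change was 0.68 (standard error 0.32). The RefSeq annotation places P2ry12 within the span of Med12l, which had a log2 fold change of -0.13 from 62 to 150 counts in mild-hypo-OPCs, against 10 to 46 in standard OPCs.

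**Figure D3:**
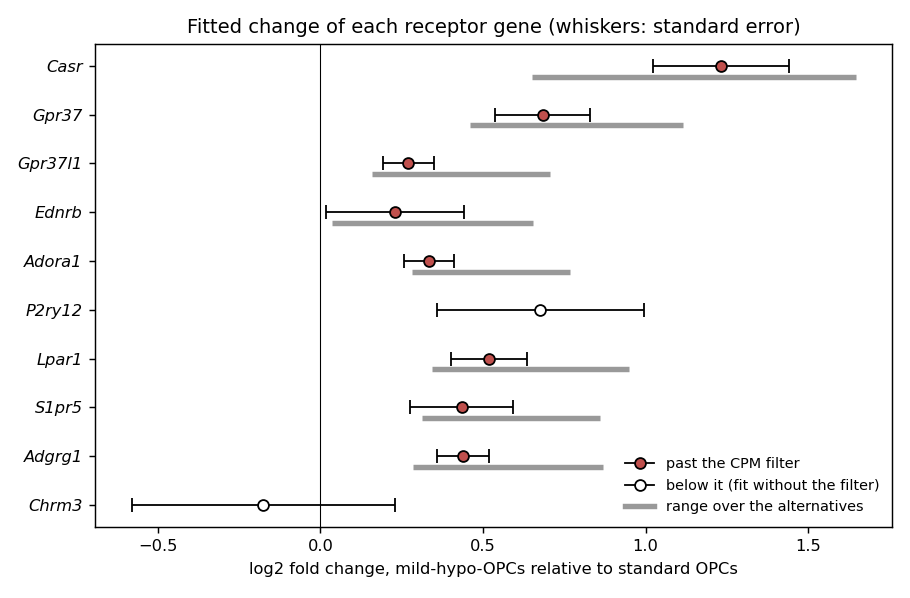
Fitted log2 fold change of each receptor gene with its standard error (12 libraries), mild-hypo-OPCs relative to standard OPCs, and in grey the range over the other settings for the 8 genes past the filter. Filled points run from 0.23 for Ednrb to 1.23 for Casr, and the open points for P2ry12 (0.68) and Chrm3 (-0.18) come from the fit without the filter on low counts.

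The lysophospholipid receptors are Lpar1, which binds lysophosphatidic acid and acts on the process network of oligodendrocytes, and S1pr5, the sphingosine-1-phosphate receptor of mature oligodendrocytes. Lpar1 (ENSRNOG00000013656) had 59.9, 67.7 and 80.8 CPM (lowest, median and highest) in mild-hypo-OPCs, against 32.5, 46.8 and 57.9 CPM in standard OPCs. The groups did not overlap, and the lowest mild-hypo-OPC library lay just above the highest standard OPC library. The fold difference was 1.43 (log2 fold change 0.52, standard error 0.12).

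S1pr5 (ENSRNOG00000020901) had 13.9, 18.3 and 22.1 CPM (lowest, median and highest) in mild-hypo-OPCs, against 9.10, 13.6 and 15.5 CPM in standard OPCs. In total 4 mild-hypo-OPC libraries were above every standard OPC library, and the other two lay within their range. Its log2 fold change was 0.43 (standard error 0.16) and did not pass the threshold.

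Adgrg1 (ENSRNOG00000014963) encodes the adhesion receptor GPR56, which acts through RhoA and keeps OPCs proliferating. Its lowest, median and highest levels were 66.3, 68.2 and 77.3 CPM in mild-hypo-OPCs, against 47.3, 50.3 and 58.1 CPM in standard OPCs. The groups did not overlap. The fold difference was 1.36 (log2 fold change 0.44, standard error 0.08).

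Chrm3 (ENSRNOG00000049410), the muscarinic M3 receptor through which acetylcholine slows OPC differentiation, was barely counted. Its counts were 7 to 18 in the mild-hypo-OPC libraries, against 1 to 9 in the standard OPC libraries. The levels overlapped, at 1.23 to 2.43 CPM in mild-hypo-OPCs, against 0.910 to 4.95 CPM in standard OPCs, with standard OPC replicate 3 the highest of all 12. The log2 fold change fitted without the filter was -0.18 (standard error 0.40).

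The description depended on depth and on which libraries were used. When log2 total count entered the model, the log2 fold changes of the 8 genes stayed positive, from 0.16 for Gpr37l1 to 0.84 for Gpr37, and 0 of them passed the threshold, where 0.00% of all genes passed as higher. Casr had 0.65 in that fit, below Gpr37. After every library was thinned to the smallest total the log2 fold change of Casr was 1.08 and the same 6 genes passed, beside 4.42% of all genes called higher. In replicates 1 to 3 only Casr, Adora1 and Adgrg1 passed (0.620% of all genes were higher), and in replicates 4 to 6 only Casr, Gpr37, Gpr37l1, Lpar1 and Adgrg1 did (6.48% of all genes were higher). S1pr5 crossed the threshold when standard OPC replicate 1 was left out (log2 fold change 0.50) and when replicate 1, 3 or 5 of the mild-hypo-OPCs was (0.49, 0.51 and 0.53). It also crossed it with upper-quartile scaling and with no filter, each giving 7 genes higher, beside 12.7% and 4.22% of all genes. With library size only it crossed it too, giving 8 genes higher, beside 61.2% of all genes. With library size as the only scaling the median of all genes moved to 0.42, and relative to that median Casr was higher by 1.22 and Gpr37l1 by 0.28.

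Across libraries of the same group the receptor genes did not move as a block. For the 6 genes with at least 10 counts in every library, the Pearson correlation of their deviations from the group mean over 12 libraries ran from -0.62 to 0.60 over 15 pairs, with a median of 0.10. The genes whose deviations were most like those of Casr, among 7524 genes with at least 10 counts in every library, were Ell2 (r = 0.94), Rasgef1b (0.91) and Gng12 (0.89). For Gpr37 they were Slc38a7, Abca7 and Tp53bp2 (r from 0.84 to 0.86), for Gpr37l1 Jkamp and Slc45a1 (0.96 and 0.92), and for Adora1 Aamp, Tsn and Ccdc86 (0.91 to 0.92). For Lpar1 they were Flot1, Rskr and Skic2 (0.88 to 0.93), for S1pr5 Gtf2h3, Cmtm5 and Nkx6-2 (0.85 to 0.92), for Adgrg1 Pcmtd2, Ctcf and Akap12 (0.90 to 0.92), and for Ednrb Rin2, Wdr24 and Gid4 (0.89 to 0.95). The highest of so many correlations over 12 libraries is large by selection, the libraries share depth and scaling, and Casr and Ednrb had few counts, so these names are a description.

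The OPC markers were present, beside markers of later stages. All 11 of the OPC markers found in the table (of 12 sought, among them Pdgfra, Cspg4, Olig2 and Sox10) passed the filter, and their summed level was 4427 to 5053 CPM in mild-hypo-OPCs, against 3690 to 4551 CPM in standard OPCs. Gpr17, a gene of the committed stage, had the highest CPM of them, which without transcript lengths is no ranking of abundance. Of the 11, 2 were called higher, Gpr17 and Nkx2-2, beside 6.99% of all genes. Markers of maturing oligodendrocytes, of which Mbp had the highest CPM, summed to 15340 to 16410 CPM in mild-hypo-OPCs. In standard OPCs they summed to 10750 to 15310 CPM, without overlap. Of the 12 that passed the filter 6 were called higher, among them Mag and Cldn11 (log2 fold change 0.47 and 0.54), beside 6.99% of all genes. That count was 3 without standard OPC replicate 3, 4 or 6, where 5.13%, 5.22% and 5.23% of all genes were higher. It was 1 in replicates 1 to 3, where 0.620% of all genes were higher. Gpr37 and S1pr5 increase in maturing oligodendrocytes, and the part of this marker list in their values was not tested.

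Astrocyte markers, which bear on Ednrb and Gpr37l1, summed to 871 to 1017 CPM in mild-hypo-OPCs, against 839 to 926 CPM in standard OPCs. These sums overlapped, with Aqp4 and Slc1a3 higher and S100b lower of 9 genes in the fit (log2 fold change 0.79, 0.25 and -0.46). Gfap, with the highest CPM of the list, had a log2 fold change of 0.12. Microglia markers, which bear on P2ry12, summed to 91.2 to 122 CPM in mild-hypo-OPCs, against 61.9 to 102 CPM in standard OPCs, with overlap. Of 8 in the fit, Csf1r, C1qb and Cd68 were higher (0.61, 0.76 and 0.67) and Tyrobp was lower (-0.69). Among the markers that define microglia, Siglech was at 0 in every library, while Cx3cr1 had 3 to 12 counts in mild-hypo-OPCs, against 0 to 2 in standard OPCs. Neuron markers summed to 277 to 311 CPM in mild-hypo-OPCs, against 183 to 235 CPM in standard OPCs, without overlap, and Tubb3 and Dlx1 of 6 in the fit were higher (0.72 and 0.82), with Dlx1 past the filter in mild-hypo-OPC libraries only. Vascular and mesenchymal markers were near 0, at 2.06 to 3.34 CPM in mild-hypo-OPCs, against 0 to 2.75 CPM in standard OPCs, and Rgs5 and Lum were at 0 in every library. Beside these calls, 6.99% of all genes in the fit were higher and 17.0% lower, and the difference in shares was not tested. The single markers were named after their values were seen, and all their calls were lost with the depth covariate. In that fit 0.00% of all genes were called higher and 0.481% lower. The part of these cells in the receptor values was not tested.

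**Figure D4:**
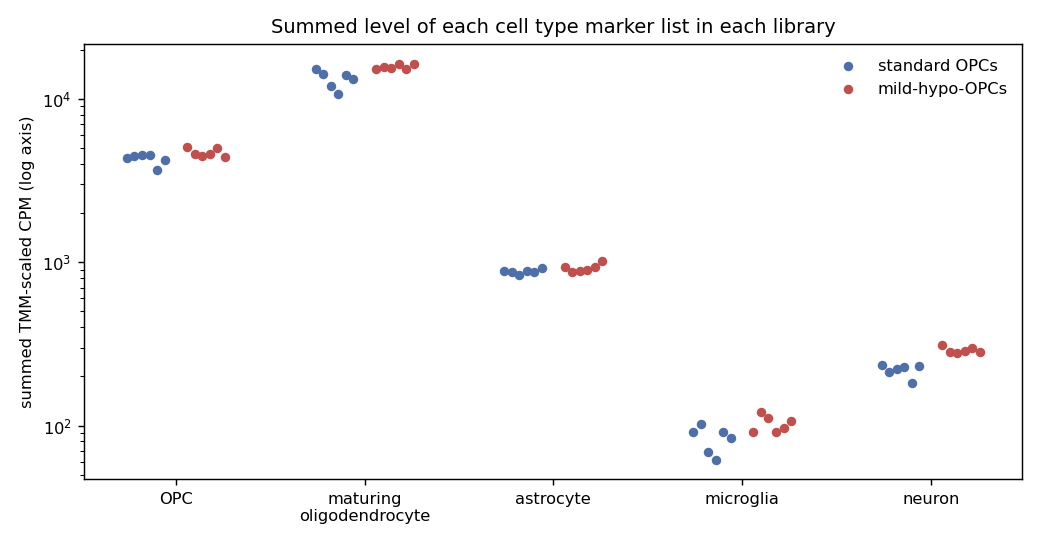
Summed TMM-scaled CPM (log axis) of 5 cell type marker lists in each library (points, 6 per group). The maturing-oligodendrocyte and neuron sums are higher in all mild-hypo-OPC libraries than in any standard OPC library, and the OPC, astrocyte and microglia sums overlap.

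The rest of the receptor family was read from a list of 246 other GPCR genes, 242 of which were in the table. Only 36 passed the filter, and 48 had no count in any library. Of the 36, 7 had a higher level in mild-hypo-OPCs with adjusted p below 0.05 (edgeR's quasi-likelihood test), 0 were lower and 29 did not pass. The share called higher was 19.4%, against 6.99% of all genes, and 17.0% of all genes were lower. This difference in shares was not tested. At an unadjusted p under 0.05, 10 were higher and 3 lower (Gpr19, P2ry4 and Adgrl3, named after their values were seen), and limma-voom and DESeq2 each called 0 lower. The median log2 fold change of the 36 was 0.17, with 27 positive and 9 negative.

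Adgrg6 (GPR126), an adhesion receptor like Adgrg1 and known from Schwann cell myelination, rose most clearly. It had 25.2 ± 1.74 CPM in mild-hypo-OPCs, against 12.8 ± 2.87 CPM in standard OPCs (SD, n = 6 each), without overlap (log2 fold change 0.95, standard error 0.13, adjusted p = 0.000147 from edgeR). Gpr17, the receptor of the committed precursor stage, rose from 956 ± 93.2 to 1308 ± 107 CPM (log2 fold change 0.45, standard error 0.09, adjusted p = 0.000842 from edgeR). Gabbr1, a subunit of the GABA-B receptor, rose by 0.28 (adjusted p = 0.0206 from edgeR), a call lost after thinning to the smallest total (adjusted p = 0.164 from edgeR). Ednra, the endothelin A receptor, had a log2 fold change of 0.74 (adjusted p = 0.0215 from edgeR) and S1pr2, a sphingosine-1-phosphate receptor, of 0.35 (adjusted p = 0.0298 from edgeR). The leukocyte adhesion receptor Adgre5 (CD97) had a log2 fold change of 0.92 (adjusted p = 0.0208 from edgeR) with only 2 to 12 counts per standard OPC library. It entered the fit through 1 mild-hypo-OPC library only, replicate 1, and limma-voom did not call it. Lgr4, an R-spondin receptor, had a log2 fold change of 0.30 (adjusted p = 0.0417 from edgeR).

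Only Adgrg6, Gpr17 and Gabbr1 of these 7 kept the call in each of the 12 fits that left out 1 library. Adgre5 was below the filter when mild-hypo-OPC replicate 1 was left out, and missed the threshold in 1 of the other 11 fits, that leaving out replicate 6 of the standard OPCs (edgeR's adjusted p = 0.0514). Ednra missed it when standard OPC replicate 3 or 6 was left out (0.0567 and 0.0527). S1pr2 missed it when standard OPC replicate 2, 3 or 4 was left out (adjusted p from edgeR of 0.0521, 0.0804 and 0.0682), and Lgr4 when mild-hypo-OPC replicate 1 or any of standard OPC replicates 1 to 5 was (0.0563 to 0.0850). All 7 calls were lost when log2 total count entered the model, where Adgre5 and Lgr4 turned to -0.23 and -0.033. In that fit 0.00% of all genes were called higher.

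**Figure D5:**
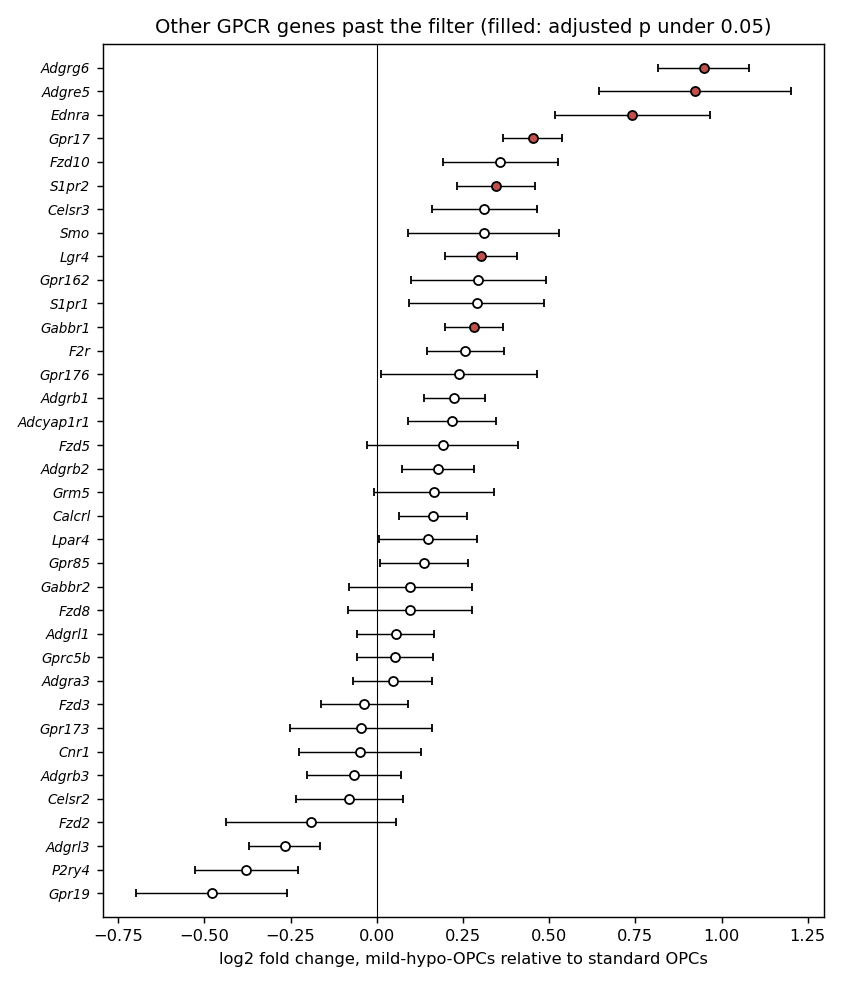
Log2 fold change with standard error (whiskers) of the 36 other GPCR genes past the filter, mild-hypo-OPCs relative to standard OPCs. The 7 filled points, from 0.28 for Gabbr1 to 0.95 for Adgrg6, passed an adjusted p of 0.05 in edgeR and are all positive.

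Downstream of the receptors, of 62 genes of G protein subunits and their regulators, 32 passed the filter, 1 was higher and 2 were lower, a share of 9.38% against 24.0% of all genes. Gnai1, the inhibitory alpha subunit used by Adora1-type receptors, rose by 0.31 (standard error 0.11, adjusted p = 0.0371 from edgeR), a call lost without standard OPC replicate 3, 4 or 6 (adjusted p = 0.0565, 0.0502 and 0.0821 from edgeR). The gamma subunits Gng10 and Gng5 fell, although their CPM ranges overlapped and the direction turned with the depth covariate (0.12 and 0.011), with log2 fold changes of -0.66 and -0.70 (adjusted p = 0.00204 and 0.00384 from edgeR). With library size as the only scaling the list gave 26 higher and 0 lower, where 61.2% of all genes were higher and 4.56% lower. With upper-quartile scaling 5 were higher, beside 12.7% of all genes. Gng10 has a second Ensembl row whose log2 fold change was -1.61, so how its reads were split between the rows is uncertain.

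Of 48 effector genes 27 passed the filter, and 3.7% of these were called, against 24.0% of all genes. Prkar2a, a regulatory subunit of the cyclic AMP-dependent kinase, was the only 1 called by edgeR, with a rise of 0.35 (standard error 0.10, adjusted p = 0.0198 from edgeR), lost without standard OPC replicate 3 or 6 (adjusted p = 0.0521 and 0.0505 from edgeR). None was lower, and none at an unadjusted p under 0.05, with limma-voom and DESeq2 also at 0. DESeq2 called 2 higher, upper-quartile scaling 3 and library size only 24, where 8.89%, 12.7% and 61.2% of all genes were higher. The median log2 fold change of the 27 was 0.10.

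Of 29 genes that make, release or clear the ligands, 27 were in the table and 10 passed the filter. Adk, the kinase that removes adenosine, fell from 35.6 ± 8.29 to 25.4 ± 1.31 CPM (SD, n = 6 each), without overlap (log2 fold change -0.46, standard error 0.12, adjusted p = 0.00899 from edgeR). The call was lost with library size only (log2 fold change -0.029), in replicates 1 to 3 and with the depth covariate. No gene of this list was higher at the adjusted threshold in edgeR, with Psap alone at an unadjusted p under 0.05 and 1 gene each by limma-voom and DESeq2. Psap, whose product prosaposin is a proposed ligand of Gpr37 and Gpr37l1, had a log2 fold change of 0.19 (adjusted p = 0.0810 from edgeR). Enpp2, which makes lysophosphatidic acid, had 0.07 (adjusted p = 0.530 from edgeR). These ligand genes, like those that follow, were named after their values were seen. Genes for the endothelins and for collagen III, a ligand of Adgrg1, had almost no reads. Edn2 and Edn3 were at 0 in every library, Edn1 had at most 1 count and Col3a1 at most 4.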

How the data were processed

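Per the labels, 12 strand-specific libraries were sequenced from rat OPCs. The authors trimmed reads and aligned and counted them against mRatBN7.2. The submitters' processing notes name Trimmomatic 0.36, FastQC 0.11.9, STAR 2.7.9a and RSEM 1.3.3, without their roles. The deposited values are whole-number counts per Ensembl gene, not normalized. Columns were matched to samples by name.

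The fit used genes exceeding a CPM of 10 in any library, counts were scaled by TMM, and groups were compared with edgeR 4.0.16 (quasi-likelihood test, R 4.3.3), with Benjamini-Hochberg adjustment over 8938 genes. Log2 fold changes are mild-hypo-OPCs relative to standard OPCs. The standard error is the absolute log2 fold change divided by the square root of F. Alternatives used limma-voom (limma 3.58.1), DESeq2 1.42.0, other scalings and filters, a replicate block, a depth covariate, thinning, subsets of replicates and leaving out each library. The procedure was tested on simulated data, drawn without an effect of depth on relative levels. That test does not separate depth from condition. Replicates differed by more than sampling noise (chi-square per degree of freedom 3.22 to 19.7). A count of 3, taken as the floor, was 0.309 to 0.607 CPM in mild-hypo-OPCs and 1.13 to 2.73 CPM in standard OPCs; this covers counting error only.

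The 10 genes and all gene lists were chosen with earlier results of these data known. Named genes were all 10 members, the called genes of the pathway lists with the lowest p (up to 8 per direction for other GPCRs, up to 5 elsewhere), the 3 most similar genes per member, and, of cell type lists, the marker with the highest CPM and defining markers at 0. Some genes that this rule names are not reported here. Listed symbols without a row were not analysed here.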

Additional observations from a re-analysis of the deposited data

Results flagged for a closer look

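Chrm3 in standard OPC replicate 3 stood apart from its group, at 4.95 CPM against 0.910 to 2.09 CPM in the other 5 libraries, with a gap to the nearest library of 0.708 of the range, above Dixon's critical value for 6 samples. It rests on 9 counts, against 1 to 4 in the others. It was the only 1 of 32 groups tested to stand out, and chance alone flags about 1 group in 20.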

How the results depend on the processing

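Library totals and condition cannot be told apart, and a standard OPC library with few counts sets the precision for Casr, Ednrb, P2ry12 and Chrm3. The cause of the changes below was not tested. With log2 total count as a covariate, 0 of the 10 genes, other GPCRs, G proteins (higher and lower), effectors and ligand genes (lower) were called. In that fit 0.00% of all genes were called higher and 0.481% lower. There 4 genes turned direction, with log2 fold changes of -0.23 for Adgre5, -0.033 for Lgr4, 0.12 for Gng10 and 0.011 for Gng5. Thinned to the smallest total, 3 other GPCRs and 0 G proteins were higher, beside 4.42% of all genes. With library size only, 30 other GPCRs, 26 G proteins, 24 effectors and 9 ligand genes were higher, beside 61.2% of all genes. In that fit 0 G proteins and 0 ligand genes were lower, beside 4.56% of all genes. With upper-quartile scaling, 5 G proteins, 3 effectors and 1 ligand gene were higher, beside 12.7% of all genes. With limma-voom, 2 G proteins and 1 ligand gene were higher, beside 6.34% of all genes. With DESeq2, 3 G proteins, 2 effectors and 1 ligand gene were higher, beside 8.89% of all genes. With no filter, 3 G proteins and 1 ligand gene were higher and 1 other GPCR lower (4.22% of all genes higher, 8.72% lower). With filterByExpr 3 G proteins were higher, beside 5.77% of all genes. In replicates 1 to 3, 3 of the 10 genes, 1 other GPCR, 0 G proteins and 0 effectors were higher, beside 0.620% of all genes. There 0 G proteins and 0 ligand genes were lower, beside 4.01% of all genes. In replicates 4 to 6, 2 other GPCRs and 2 G proteins were higher, beside 6.48% of all genes.

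Leaving out 1 library at a time gave 6 to 7 of the 10 genes higher, 4 to 8 other GPCRs higher and 0 to 1 lower, 0 to 4 G proteins higher and 2 lower, 0 to 3 effectors higher, and 0 to 1 ligand genes higher and 1 lower. The smallest count of other GPCRs, 4, came without standard OPC replicate 3. Over these fits 4.91% to 9.22% of all genes were higher and 13.1% to 18.7% lower.

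Replicate numbers are shared between the groups. The correlations of same-numbered deviations ran from -0.276 to 0.296, and only replicate 1 correlated best with its own number. Because the deviations may also be technical, this does not settle whether same-numbered libraries shared a culture. With the replicate block, 6 of the 10 genes, 5 other GPCRs and 0 G proteins were higher, beside 6.40% of all genes. In that fit 1 other GPCR was lower, beside 16.5% of all genes.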

Other observations

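Ache, which encodes acetylcholinesterase, the enzyme that clears the ligand of Chrm3, did not pass the filter on low counts and was singled out after its values were seen. It had 12 to 20 counts in each mild-hypo-OPC library (96 in all) and 0 to 2 in each standard OPC library (5 in all). Its levels were 2.61 ± 0.63 CPM and 0.56 ± 0.67 CPM (SD, n = 6 each), without overlap. Fitted without the filter it had an adjusted p of 0.00290 in edgeR, in a fit where 4.22% of 17391 genes were called higher. No fold is given because every standard OPC library was below the floor of 3 counts.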
